A study of Mus musculus with 5 samples.

Results

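The transcripts described here encode the proteins of the cytosolic ribosome in sorted mouse mammary luminal cells. The members were chosen by gene name: every gene named Rpl or Rps followed by a number (with or without a final a, l or x), together with Rplp0, Rplp1, Rplp2 and Rpsa. This gave 81 genes of the 24346 rows in the deposited table, 49 counted with the large and 32 with the small ribosomal subunit. Levels are in FPKM, fragments scaled to the total mapped in the library and to transcript length, which is meant to make genes comparable. The members are short, with a median of 462 coding bases. How far length affects comparisons of level between such short genes was not tested.

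Bulk RNA sequencing was available for 5 libraries of viable cells sorted as CD24 high and CD29 low, the luminal fraction of the gland. The labels give 3 of them (Lum1, Lum2 and Lum3) as wild type and 2 (Lum4 and Lum5) as Brca1 knockout, with mixed strain for each. The study's methods describe female mice of 3 to 4 months, virgin or in mid-pregnancy, on a mixed C57BL/6 and 129/Sv background, and MMTV-Cre; Brca1 fl/fl mice in which the MMTV promoter drives Cre in the mammary epithelium, so that a sorted population can hold cells with and without the deletion. Which stage gave which library, and whether the libraries labelled wild type carry Cre or floxed alleles, were not given in the sources used here. The study's text speaks of its luminal cells as BRCA1-deficient, and the extraction note in the labels speaks of tumors. The labels do not say whether each library came from a separate mouse, so the spread between libraries may be partly technical.

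The ribosome makes every protein of the cell. Its large subunit joins amino acids and its small subunit reads the mRNA, and the proteins of each subunit bind ribosomal RNA in near equal numbers, so their genes are expressed strongly and together. Their mRNAs begin with a run of pyrimidines, the terminal oligopyrimidine (TOP) tract, through which mTOR signalling controls their translation, and in the mammary gland the demand for protein synthesis grows as the luminal cells prepare to secrete milk.

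The labels were first set against the data. Brca1 was listed at 1.30, 1.32 and 0.234 FPKM in Lum1, Lum2 and Lum3, and at 1.20 and 1.34 FPKM in Lum4 and Lum5. Of the libraries labelled Brca1 knockout, Lum4 was thus within the range of those labelled wild type and Lum5 was just above it. The lowest value was in Lum3. A gene level does not show whether an exon is deleted, and the table has no exon values. The luminal keratin Krt8 was at 2483, 2240, 3653, 2421 and 2332 FPKM in Lum1 to Lum5, and Krt18, Epcam and Cd24a were at 411 FPKM or more in every library.

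Lum3 stood apart from the other libraries in its marker genes. The 7 mature luminal markers summed to 470.3 FPKM in Lum3 against 18.8 to 44.6 FPKM in the others, led by Prlr, the prolactin receptor, at 148 FPKM. The 7 milk genes summed to 28541 FPKM in Lum3 against 68704 to 91288 FPKM, with the casein Csn2 the most abundant, although Lalba, the alpha-lactalbumin gene of that list, was highest in Lum3 at 599 FPKM against 130 to 185 FPKM. The proliferation gene Mki67 was at 0.504 FPKM in Lum3 and at 9.66 to 27.2 FPKM elsewhere, and the 6 genes of that list summed to 58.1 FPKM against 107 to 173 FPKM. The 6 luminal progenitor markers, led by Csn3, summed to between 2319 FPKM in Lum3 and 3535 FPKM in Lum2, and Csn3, a casein that is also in the milk list, made up most of each sum. Itgb3, Cd14 and Aldh1a3 of this list were highest in Lum3, at 34.9, 387 and 17.4 FPKM against at most 1.72, 350 and 9.88 FPKM elsewhere. Elf5 was lowest there, at 102 FPKM against 244 to 338 FPKM, and Kit lay within the range of the others, at 39.3 FPKM.

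Markers of other cells were not evenly spread either. The study's methods describe a step that depletes hematopoietic and endothelial cells before the sort. The 6 immune markers summed to 29.4, 942, 249, 30.4 and 473 FPKM in Lum1 to Lum5, with Cd74 the most abundant and Cd3e at 0 in Lum1 and Lum4. The 6 fibroblast markers summed to 2.997, 109, 86.0, 3.86 and 12.6 FPKM, with the collagen genes and Dcn as the main contributors. The 4 endothelial markers summed to 0.597, 6.49, 7.20, 0.453 and 0.138 FPKM. Pecam1 was the highest of them by mean, and Kdr was at 0 in Lum1 and Lum4. The 6 basal markers summed to 66.6, 128, 7.30, 39.4 and 61.4 FPKM, led by Krt14, while Trp63 was at most 0.311 FPKM. The 4 red cell genes, with Hba-a1 the highest by mean, summed to between 2.23 and 22.9 FPKM. The 4 adipocyte genes were near 0, with a sum of at most 0.0903 FPKM. Lum1 and Lum4 therefore had the lowest immune and fibroblast sums, but against Lum5 the immune sum rests on Cd74, which alone was at 465 FPKM there, and Cd68 was lowest in Lum5. The number of genes listed at 0 also differed, with 8833 in Lum1, 6831 in Lum2, 6476 in Lum3, 8855 in Lum4 and 7231 in Lum5 of 24319 genes. Read totals are not in the table, so the depth of each library is unknown. The part of these differences in the levels below was not tested.

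Ribosomal protein genes have many processed copies elsewhere in the genome. Of the 81 members, 80 had a coding sequence in GENCODE M21, and 62 of these had at least 1 annotated copy outside the member list of at least 98% identity over at least 80% of the coding sequence. The table holds a row for the copy in 10 such pairs. In 4 pairs the copy had a higher mean FPKM than the member, and for these the level of the member alone cannot be taken as the level of its mRNA. The sequences below show how little separates them. They are windows of the coding strand (GENCODE M21, GRCm38, the same assembly as mm10) with the differing base in capitals, and positions count from 1 at the first coding base of the annotated transcript.
Rps27 and Rps27rt, bases 16 to 75: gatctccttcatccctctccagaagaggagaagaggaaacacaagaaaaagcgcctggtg
Rpl34, bases 102 to 161: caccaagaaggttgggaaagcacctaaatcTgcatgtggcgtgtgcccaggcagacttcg
Rpl34-ps1: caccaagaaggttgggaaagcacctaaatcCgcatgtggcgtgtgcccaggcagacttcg
Rpl26, bases 147 to 206: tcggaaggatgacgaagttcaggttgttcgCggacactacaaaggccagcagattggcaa
Gm15772: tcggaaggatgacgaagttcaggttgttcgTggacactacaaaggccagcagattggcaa
Rpl30, bases 66 to 125: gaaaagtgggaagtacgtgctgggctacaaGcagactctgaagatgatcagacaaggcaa
Gm12191: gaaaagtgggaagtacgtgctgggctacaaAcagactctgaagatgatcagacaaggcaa

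Rps27, a zinc finger protein of the small subunit (chr3:90212522-90213651, minus strand), was identical over all 252 coding bases to Rps27rt (chr9:114982366-114982739, minus strand), so the window has no capital. Rpl34 (chr3:130726831-130730398, minus strand) and Rpl34-ps1 on chromosome 6 differed by T132C and C318G over 353 coding bases. Rpl26 on chromosome 11 and Gm15772 on chromosome 5 differed by C177T and T288C over 435 coding bases. Rpl30 on chromosome 15 and Gm12191 on chromosome 11 differed by G96A alone over 345 coding bases. A fragment that covers none of these positions has the same coding sequence at both genes.

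The division between member and copy was not the same in every library. Rps27 was listed at 7.56, 321 and 175 FPKM in Lum1, Lum2 and Lum3 and at 6.43 and 212 FPKM in Lum4 and Lum5. Rps27rt was listed at 2446, 1419, 1609, 2428 and 1162 FPKM in the same order. Lum1 and Lum4 were thus the lowest for Rps27 and the highest for Rps27rt, across the labels, and Rps27rt took 99.7% of the pair's FPKM in both against 81.6% to 90.2% in the other libraries. Rpl34, a protein of the large subunit, was also lowest in Lum1 and Lum4, at 246 and 258 FPKM against 304 to 412 FPKM, while Rpl34-ps1 was highest there, at 1361 and 1221 FPKM against 656 to 844 FPKM. Rpl34-ps1 took 84.7% and 82.6% of its pair in Lum1 and Lum4 and 65.7% to 68.3% elsewhere. The pairs of Rpl26 and Rpl30 did not show this split: Gm15772 held 98.02% to 98.9% and Gm12191 held 95.8% to 97.3% of the pair in every library. Lum1 and Lum4 were also the libraries with the most genes at 0. The study's methods name more than 1 sequencer and more than 1 read length for the bulk libraries, and which library had which is not given in the sources used here. The part of read length, sequencer or genes at 0 in the split was not tested.

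**Figure D1:**
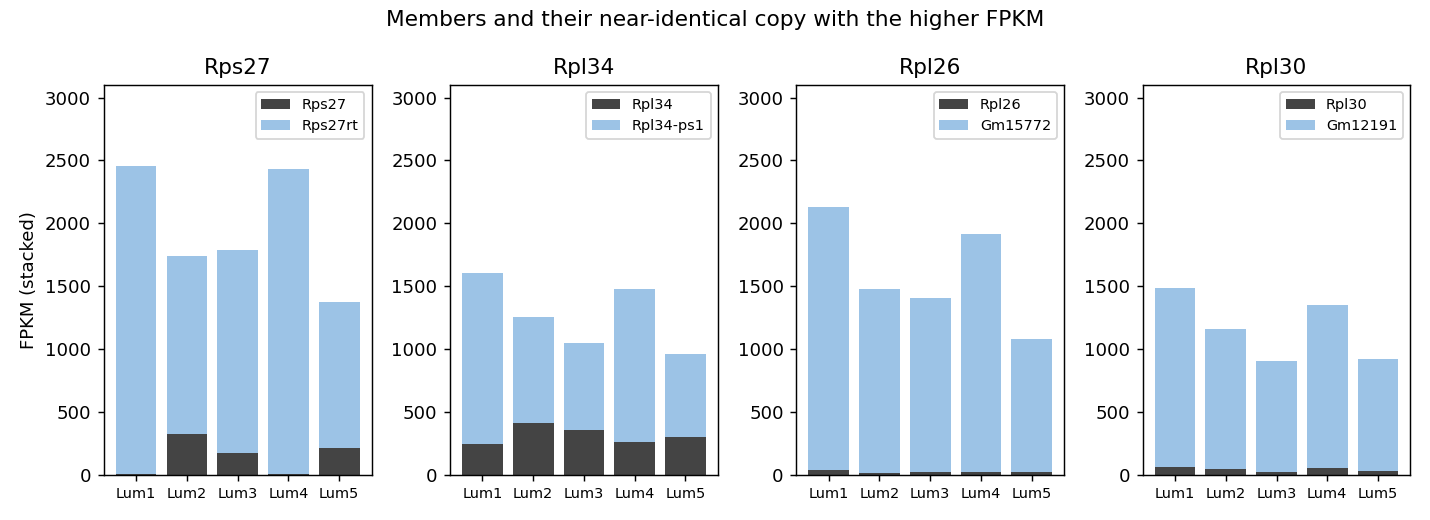
FPKM of 4 members (dark), with that of their near-identical copy (light) stacked on top, in each of the 5 libraries. The copy holds most of each bar, and the dark part of Rps27 falls to 7.56 FPKM in Lum1 and 6.43 FPKM in Lum4 while the stack is highest there.

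With the copy added, the 4 members no longer stood at the foot of the list. Rps27 had a mean of 145 FPKM alone and 1957 FPKM with its copy, Rpl34 of 316 and 1270 FPKM, Rpl26 of 25.2 and 1600 FPKM, and Rpl30 of 42.7 and 1165 FPKM. In rank among the 81 members these are moves from position 74 to 13, 71 to 44, 77 to 26 and 76 to 50. The other 6 pairs had the copy below the member: Rpl14-ps1 held 31.1%, Rpl31-ps12 31.3%, Rpl37rt 23.6%, Rps15a-ps6 44.4%, BC004004 (copy of Rpl21) 3.49% and Wdr89 (copy of Rplp2) 0.0203% of the mean FPKM of its pair. For Rpl14 the copy's share varied only from 30.3% to 32.3% between libraries. Rps15a, of the small subunit, stayed low also with its copy, at a mean of 114 FPKM. Copies without a row in the table could take fragments of further members, which was not tested.

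The members were among the most abundant transcripts of these cells. Of the 81 members, 51 had a mean of at least 1000 FPKM, 23 lay between 100 and 1000 FPKM, 4 between 1 and 100 FPKM and 3 under 1 FPKM, and 49 of the 100 genes with the highest mean FPKM were members. Their median log2(FPKM + 1) was 10.56, 10.30 and 9.98 in Lum1, Lum2 and Lum3 and 10.52 and 10.05 in Lum4 and Lum5, a mean of 10.28 ± 0.27 (SD, n = 5), against 3.28 ± 0.10 for the 11481 genes tested, those averaging 1 FPKM or more. They took 18.05%, 18.2%, 15.3%, 17.8% and 16.3% of the summed FPKM of the libraries in the same order. These shares have unequal denominators, since genes named as small RNAs took 16.9%, 5.73%, 17.7%, 18.04% and 5.27% of the sum. Without the small RNAs the members' shares were 21.7%, 19.3%, 18.6%, 21.8% and 17.2%.

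**Figure D2:**
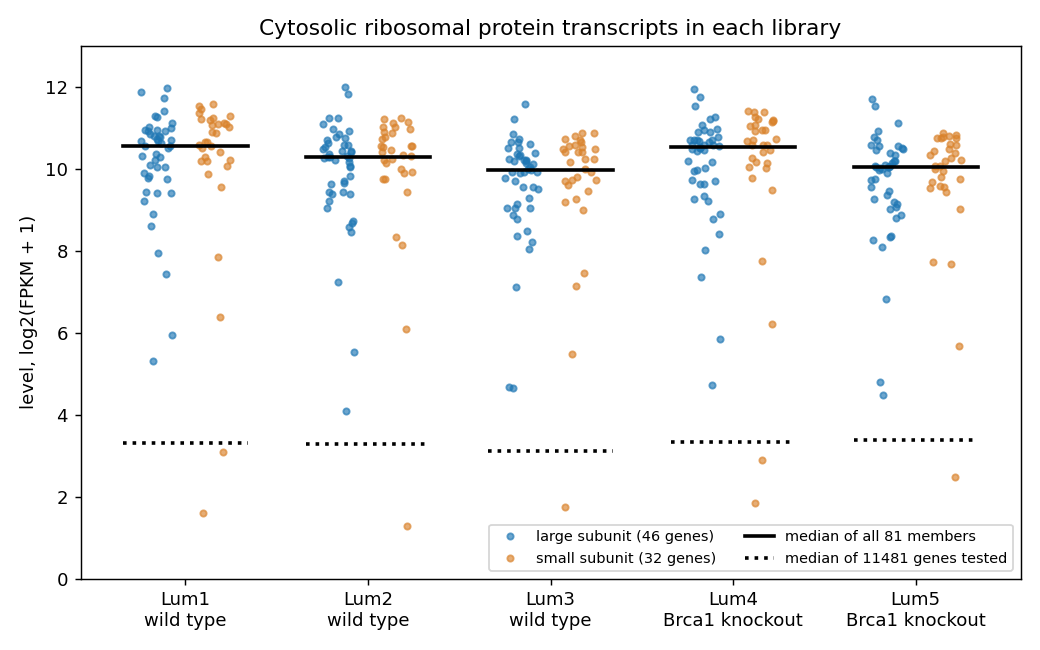
Level, as log2(FPKM + 1), of the 78 members tested in each library, as points for large subunit (blue) and small subunit (orange) genes. Solid lines are the median of all 81 members, between 9.98 and 10.56, and dotted lines the median of all 11481 genes tested, between 3.11 and 3.38.

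The acidic P proteins form the stalk of the large subunit, which recruits the elongation factors. Rplp1 was the most abundant member, at 3999, 4071, 3067, 3979 and 3332 FPKM in Lum1 to Lum5, a mean of 3690 ± 458 FPKM. Rplp2, which pairs with Rplp1 in the stalk, reached 2454, 1588, 1331, 2007 and 1408 FPKM. Rplp0, the stalk base that anchors the pairs, reached 1957, 2000, 1560, 2133 and 1754 FPKM. Rplp1 was above Rplp2 and Rplp0 in every library, whereas Rplp2 and Rplp0 changed places, with Rplp2 the higher in Lum1 alone.

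After Rplp1 the highest members were Rpl41, Rpl28, Rps28, Rps26 and Rps12. Rpl41, the shortest protein of the ribosome, was at 3747, 3606, 2369, 3449 and 2965 FPKM. Rpl28, of the large subunit, had a mean of 2562 ± 612 FPKM, and the small subunit genes Rps28, Rps26 and Rps12 had means of 2355 ± 512, 2327 ± 441 and 2273 ± 651 FPKM (SD, n = 5). The order of these last 4 genes changed from library to library, except that Rpl28 was above Rps12 in each. Rpsa, the laminin receptor precursor that sits in the small subunit, was lower, at 1069, 975 and 581 FPKM in Lum1 to Lum3 and 1037 and 818 FPKM in Lum4 and Lum5. Rpl5 and Rpl11, which join 5S RNA in a particle that can bind Mdm2, had means of 584 ± 86.8 and 1584 ± 302 FPKM. Rps6, the small subunit protein phosphorylated by S6 kinase, had a mean of 960 ± 198 FPKM.

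The median of the large subunit genes lay below that of the small subunit genes in every library. The large subunit median was 10.52, 10.26, 9.93, 10.49 and 9.998 on the log2(FPKM + 1) scale, and the small subunit median 10.65, 10.43, 10.20, 10.63 and 10.13. The large minus small difference averaged -0.17 ± 0.06 (SD, n = 5), and it was widest in Lum3, at -0.27. The 3 members under 1 FPKM are all counted with the large subunit.

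The genes whose names end in l are paralogs of other ribosomal protein genes. Rpl3l, a paralog of Rpl3 known from muscle, was at 0.0846 FPKM in Lum2 and at 0 in the other libraries. Rpl10l, a testis paralog of Rpl10, was at 0.0529 FPKM in Lum5 and at 0 elsewhere, and Rpl39l, a paralog of Rpl39 also known from testis, at 0.0502 FPKM in Lum3 and at 0 elsewhere. Their partners were abundant, with means of 1217 ± 172 FPKM for Rpl3, 1780 ± 191 FPKM for Rpl10 and 1447 ± 269 FPKM for Rpl39. These 3 paralogs are the members that were not tested between the labels.

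Rps27l and Rps4l were detected in every library. Rps27l, a paralog of Rps27 known as a p53 target, was at 229, 283, 139, 216 and 204 FPKM in Lum1 to Lum5, highest in Lum2 and lowest in Lum3. Rps4l, for which GENCODE M21 gave no coding sequence, was at 2.02, 1.43 and 2.34 FPKM in Lum1 to Lum3 and at 2.62 and 4.58 FPKM in Lum4 and Lum5. Its partner Rps4x, carried on the X chromosome, was at 1508, 1505, 1359, 1700 and 1184 FPKM, so the order of the libraries differed between these partners.

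Across libraries the members moved together. In 66 of the 78 members tested (84.6%), Lum1 and Lum4 were both above Lum2, Lum3 and Lum5, an arrangement found in 16.97% of all 11481 genes. With the near-identical copies added the count was 68, and 8 of the 10 copies in the table showed the same arrangement by themselves. Lum1 held the highest value of 67 members, against 24.2% of all genes tested. Lum3 held the lowest value of 46 members and Lum5 of 28, against 51.9% and 9.39% of all genes, so the count for Lum3 is near that of genes in general. The high and the low libraries each included both labels. The separation depends on scaling: 54 members showed the arrangement when FPKM were rescaled to equal totals without the small RNAs, 47 under median-of-ratios scaling, 24 when rescaled to equal totals with all genes, 18 without the 10 highest genes and 16 under quantile scaling, where all genes gave 7.76%, 10.8%, 2.72%, 2.54% and 16.3%. Lum1 and Lum4 also had the most genes at 0 and the lowest immune and fibroblast sums. How many immune cells remained after the depletion step in the methods was not tested. In bulk RNA, fewer cells of a type and less RNA per cell cannot be told apart.

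Under the deposited scaling the spread of a member over libraries was close to that of other genes and was largely shared among members. The median SD of log2(FPKM + 1) over the 5 libraries was 0.28 for the 78 members and 0.30 for all genes tested. After the member median of each library was subtracted, the median SD of the members was 0.10, and 39 of the 78 members were under 0.1. The share in common depended on the scaling: before that subtraction the members' median SD was 0.22 under median-of-ratios, 0.16 under quantile scaling and 0.14 when rescaled to equal totals. Because the members themselves set that median, the smaller value describes how alike they are and is no test.

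The 72 members with an SD of at most 0.2 against the median differed between their highest and lowest library by 1.28-fold to 2.002-fold, with a median of 1.55-fold. The steadiest members against the median came from both subunits. They included Rpl4 (SD 0.02), Rps26 (0.03), Rpl6 (0.04) and Rpl14 (0.04). Rps26, for example, was at 2811, 2389, 1863, 2687 and 1885 FPKM, which follows the median from library to library. Rpl4 was itself the median member in Lum2.

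Only 6 members had an SD above 0.2 against the median, namely Rps27 (2.90), Rps4l (0.60), Rpl34 (0.52), Rpl26 (0.39), Rpl30 (0.32) and Rps27l (0.30). With the copy added, the SD of Rps27 was 0.16, of Rpl34 0.06, of Rpl26 0.17 and of Rpl30 0.04, and 2 members remained above 0.2. These are Rps4l, the lowest member tested, and Rps27l. Because the copy holds most of each sum, the SD of a sum is largely that of the copy. The cause of the spread of these members alone was not tested. Rplp0 and Rplp1 varied less than most members in absolute terms, with SDs of 0.18 and 0.19, and against the median they were lowest in Lum1. Rpsa was lowest against the median in Lum3.

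**Figure D3:**
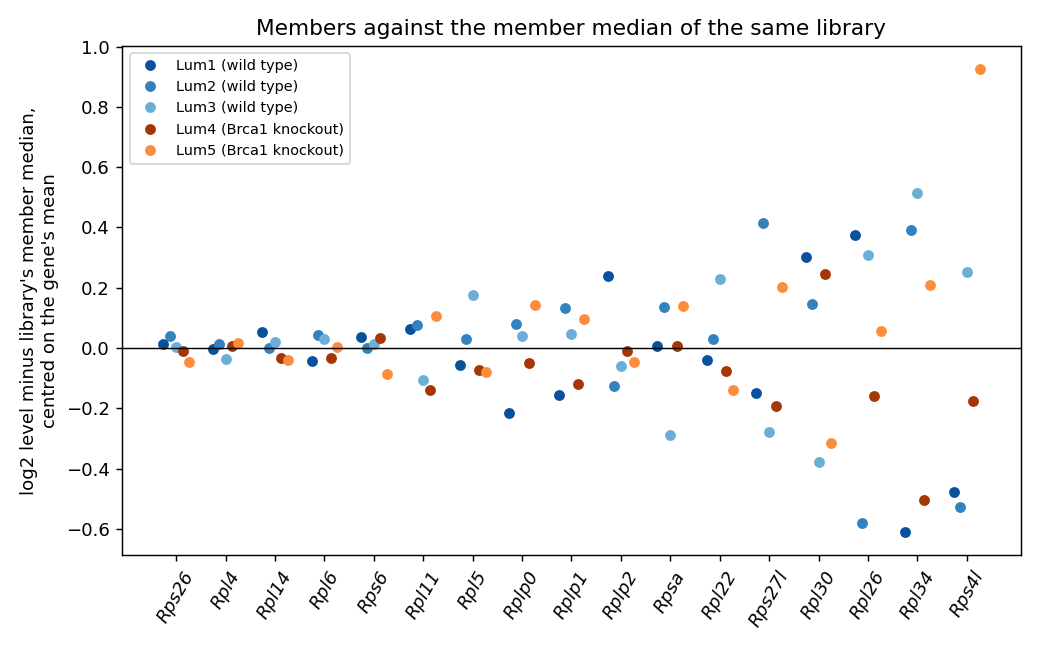
Level of members named in the text on the log2 scale after the member median of the same library and then the gene's own mean were subtracted, one point per library. Rpl4, Rps26 and Rpl6 lie near 0 in every library, Rpl34 is lowest in Lum1 and Lum4, and Rps4l is highest in Lum5; Rps27 (SD 2.90) is left out because it would set the scale.

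The labels were compared with limma over all 11481 genes. No gene passed an adjusted p of 0.05 (0% of the genes tested), and no member did. At an unadjusted p of 0.05 limma gave 372 genes (3.24%), none of them a member. The smallest adjusted p of a member was 0.92, that of Rps4l, and with 3 libraries against 2 a two-sided exact permutation test that doubles the smaller tail cannot go below 0.2. The member median was 10.28 ± 0.29 (SD, n = 3) in the libraries labelled wild type and 10.28 ± 0.34 (SD, n = 2) in those labelled Brca1 knockout. The difference of 0.00285 is under the spread within either label and rests on single libraries: it was 0.14 without Lum1, 0.013 without Lum2, -0.15 without Lum3, -0.23 without Lum4 and 0.24 without Lum5, and it was -0.13 under median-of-ratios scaling and 0.05 under quantile scaling.

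Single members showed the same overlap. Libraries of the 2 labels did not overlap in 1 member, Rps4l, which was higher in Lum4 and Lum5 by 0.63 ± 0.30 (SE) on the log2 scale, adjusted p = 0.92 with limma. The size of this difference rests on Lum5, since it was 0.32 without Lum5 and 0.94 without Lum4. Such separation with the knockout label higher was found in 17.5% of all genes tested, and with the knockout label lower in 5.77%, where no member was found. The other members with the highest fitted differences were Rpsa (0.12), Rplp0 (0.08), Rpl3 (0.07) and Rpl15 (0.07). The lowest were Rps27 (-0.98), Rpl34 (-0.24), Rpl38 (-0.21), Rpl22 (-0.18) and Rpl21 (-0.17), all with overlapping labels. Rpl38, of the large subunit, was at 1941, 1389 and 1321 FPKM under the wild type label and at 1645 and 1057 FPKM under the knockout label. With their copies added, the differences of Rps27 and Rpl34 shrank to -0.11 and -0.11. Leaving out Rps27 and Rps4l, the fitted differences of the members stayed within 0.24 of 0, and their median SE was 0.30.

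Whether members lay above or below 0 followed the scaling, which moves all genes, so the list was read against all genes tested. Of the 78 members, 20 had a fitted difference above 0 and 58 below 0, with a median of -0.04, while the median of all genes tested was 0.11 and 65.5% of them were above 0. Members above 0 numbered 1 under median-of-ratios scaling, 15 without the 10 highest genes, 31 when rescaled to equal totals and 41 under quantile scaling, where 48.7%, 63.4%, 69.1% and 55.9% of all genes were above 0. The member median was below that of all genes under each of these scalings, at -0.18 against -0.0093, -0.06 against 0.10, -0.01 against 0.15, and 0.0061 against 0.04. Leaving out 1 library gave 66 members above 0 without Lum1, 29 without Lum2, 1 without Lum3, 2 without Lum4 and 73 without Lum5, where 68.3%, 66.8%, 54.97%, 62.8% and 63.5% of all genes were above 0. The member median was below that of all genes in these fits except without Lum5, where it was 0.20 against 0.11.

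**Figure D4:**
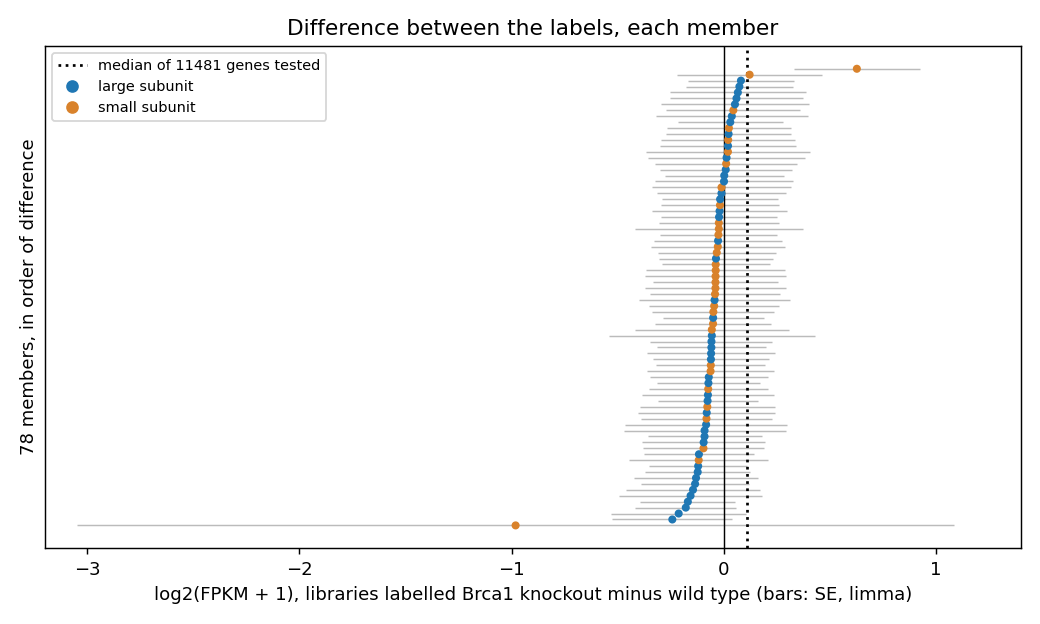
Fitted difference in log2(FPKM + 1) between the libraries labelled Brca1 knockout and those labelled wild type for the 78 members tested, with SE bars from limma, in order of size. Every bar but that of Rps4l crosses 0, Rps27 (-0.98) and Rps4l (0.63) lie at the ends, and the dotted line marks the median of all genes tested, 0.11.

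The ribosomal proteins that the name rule missed were examined in the same way. Fau, which makes a ribosomal protein fused to a ubiquitin-like protein, was at 1550, 1377, 1325, 1404 and 1121 FPKM. Rps3a1 ranged from 1243 to 1872 FPKM, Gnb2l1 (Rack1, a signalling scaffold on the small subunit) from 971 to 1274 FPKM, and Rpl36al from 406 to 593 FPKM. Rpl22l1, a paralog of Rpl22, was at 397, 324, 179, 357 and 285 FPKM and exceeded Rpl22 itself, at 172, 150, 138, 162 and 111 FPKM, in every library. Rpl7l1 was low, from 18.4 to 24.3 FPKM. The list of 8 genes includes Rps27rt, the copy of Rps27 described above. Under the deposited scaling, the only one used for this count, Lum1 and Lum4 were above the other libraries in 6 of the 8. Of all genes tested, the share was 16.97%. None passed the test between the labels (3 above 0 and 5 below, against 65.5% of all genes tested above 0).

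Other mRNAs known for a TOP tract shared the arrangement in part. Among 19 such genes Lum1 and Lum4 were above the others in 13 (68.4%), against 16.97% of all genes tested. This count was made under the deposited scaling only. This list overlaps the one above by 3 genes, Fau and Gnb2l1 among them. The highest, Eef1a1, the factor that brings aminoacyl-tRNA to the ribosome, was at 5169, 5397, 5120, 5745 and 4443 FPKM. Tpt1, with the lowest fitted label difference (-0.18), was at 3141, 2710, 3142, 3184 and 2186 FPKM, and Nap1l1, a histone chaperone with the highest (0.36), at 125, 125, 72.4, 158 and 113 FPKM. None of the 19 passed the test, with 12 above and 7 below 0, against 65.5% of all genes tested above 0.

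Of 64 genes named Eif or Eef, which hold the translation initiation and elongation factors with some of their kinases and repressors, 59 were tested. Under the deposited scaling, the only one used for this count, Lum1 and Lum4 were above the others in 18 (30.5%). Of all genes tested, 16.97% showed this arrangement. This list shares genes with the TOP list, Eef1a1 and Eif4b among them, and the difference between the lists was not tested. The median over all 64 was 5.97, 5.88, 5.40, 5.94 and 5.88 on the log2 scale, lowest in Lum3. None passed the test, with 45 above and 14 below 0, against 65.5% of all genes tested above 0. The highest difference was that of Eef2k, the kinase that inhibits elongation factor 2 (0.58), and the lowest that of Eif4a2, an RNA helicase of initiation (-0.20).

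The mitochondrial ribosome is built from a separate set of nuclear genes. All 77 such genes were tested, and their median was 4.86, 4.52 and 3.80 in Lum1 to Lum3 and 4.50 and 4.53 in Lum4 and Lum5. The lowest library was Lum3 in 71 of the 77 genes, against 51.9% of all genes tested. Lum1 and Lum4 were both above the others in 21 (27.3%), against 16.97% of all genes tested, under the deposited scaling only. The highest gene was Mrps21, at 120, 128, 65.02, 113 and 99.9 FPKM. None passed the test, with 64 above and 13 below 0, against 65.5% of all genes tested above 0. Mrpl9 had the highest difference (0.61) and Mrpl52 the lowest (-0.23).

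In Lum5 the cytosolic and the mitochondrial lists lay on opposite sides of their means, except under quantile scaling (0.05 and 0.03). Relative to each gene's mean over the 5 libraries, the median deviation in Lum5 was -0.26 for the cytosolic members and 0.10 for the mitochondrial genes, against 0.06 for all genes tested. In Lum3 both lists were below their means, by a median of -0.29 and -0.63, and all genes tested by -0.21. Under median-of-ratios scaling, which removes the shift of all genes, these Lum3 values were -0.04, -0.40 and 0.0032. In Lum1 the medians were 0.29 and 0.29, against 0.06. The 1994 other genes with transcripts of at most 1000 bases had deviations of 0.15, 0.04, -0.29, 0.05 and 0.03 in Lum1 to Lum5.

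**Figure D5:**
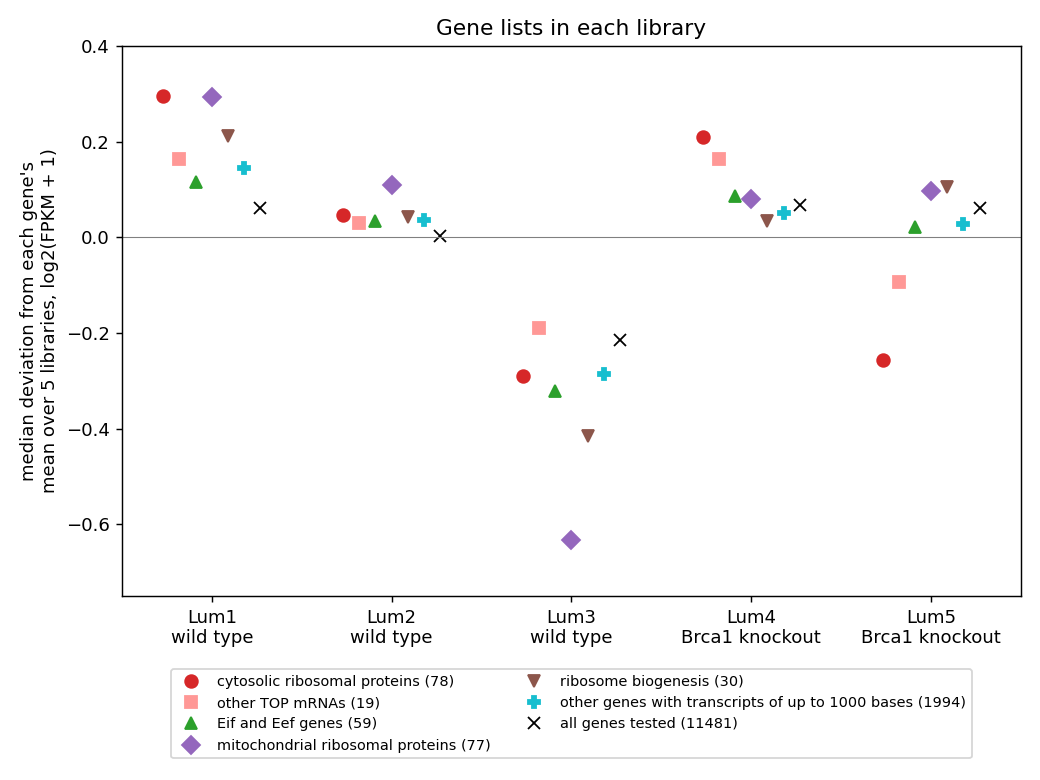
Median deviation of each gene list from its genes' means over the 5 libraries, in log2(FPKM + 1), with one marker per list and library and the number of genes tested in parentheses. In Lum5 the cytosolic members (-0.26) lie below the mitochondrial genes (0.10), and in Lum3 all lists shown are below 0.

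Genes that build and regulate ribosomes were examined next. The 30 ribosome biogenesis genes had medians of 4.81, 4.58, 4.07, 4.60 and 4.66, and the nucleolar chaperone Npm1, the highest, was at 590, 566, 264, 596 and 448 FPKM. Dkc1, the pseudouridine synthase of ribosomal RNA, had the highest label difference (0.34), and Sbds, which helps to release Eif6 from the large subunit, the lowest (-0.27). The 14 genes of RNA polymerase I and its factors, which transcribe ribosomal RNA, had medians of 3.59, 3.46, 3.06, 3.49 and 3.73. Polr1d was the highest of them, from 92.1 to 137 FPKM, and Twistnb (0.41) and Cd3eap (-0.05) had the extreme label differences. None passed the test in either list, with 25 of 30 and 13 of 14 above 0, against 65.5% of all genes tested. For the lists other than the members, such counts were made under the deposited scaling only.

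The 11 regulators had medians of 4.26, 3.62, 3.64, 3.81 and 3.89. Myc, a transcription factor that drives ribosome production and the highest of them, was at 158, 92.2, 54.0, 140 and 126 FPKM, and was lowest in Lum3. Eif4ebp2 and Eif4ebp1, translation repressors downstream of mTOR, had the extreme label differences, 0.57 and 0.02. The 10 genes for carriers and guards of free ribosomal proteins had medians of 4.70, 4.40, 4.02, 4.43 and 4.53, with Nap1l1 the highest and Bccip at the lowest label difference (-0.06). None of these 11 and 10 genes passed the test, with 11 and 8 above 0, against 65.5% of all genes tested. All of these lists had their lowest or next to lowest median in Lum3.

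Since the members moved together, their annotated starts were examined for shared letters. RefSeq (GRCm38.p6) windows from 250 bases before to 50 bases after the start were available for 60 of the 81 members. A start at C followed by C or T up to a run of at least 5 was found in 13 of the 60 members (21.7%) and in 3.01% of all 27025 genes with a window. The following windows of 30 bases, from 10 before the start, show the run in capitals for 5 of the members described above and, as the longest run, for Rpl15.
Rpl15, chr14:18270967-18270996, minus strand: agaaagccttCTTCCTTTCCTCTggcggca
Rps6, chr4:86857348-86857377, minus strand: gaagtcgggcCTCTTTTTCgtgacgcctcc
Rpl28, chr7:4792955-4792984, plus strand: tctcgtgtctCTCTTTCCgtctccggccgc
Rpl38, chr11:114668570-114668599, plus strand: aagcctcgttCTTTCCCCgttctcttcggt
Rps27, chr3:90213629-90213658, minus strand: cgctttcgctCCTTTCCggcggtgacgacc
Rplp2, chr7:141447641-141447670, plus strand: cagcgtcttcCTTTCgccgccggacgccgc

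The run was 13 bases in Rpl15, 9 in Rps6, 8 in Rpl28 and Rpl38, 7 in Rps27 and 5 in Rplp2. An annotated start that lies a few bases from the one used would hide a run, so its absence in the other 47 windows says only that it does not begin at the annotated base. The members with a run at the start had a median level of 10.43 and those without 10.19, on the log2(FPKM + 1) scale averaged over libraries. Both classes were highest in Lum1 and had their lowest median in Lum5 (with a run) or Lum3 (without).

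Other short motifs were searched on both strands of the 300-base windows. The Ets site CCGGAAGT was in 12 of the 60 members (20%) and in 4.31% of all genes, and the GC box GGGCGG in 36 (60%) and in 38.2%. The YY1 site AAGATGGC was in 5 (8.33%) against 3.19%, the E-box CACGTG bound by Myc in 6 (10%) against 8.09%, and TATAAA in 6 (10%) against 15.7%. For these motifs and for the run at the start, the genes compared were all those with a window, expressed here or not. Shares among expressed genes alone were not examined. A match of letters describes the window and is not evidence of binding.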

How the data were processed

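Gene-level FPKM of 5 libraries were used. Per the study's methods and the submitters' processing notes, the authors aligned paired reads to mm10 with TopHat2 (2.0.13 in the notes, another version in the methods) after Trimmomatic 0.35 and made the deposited FPKM with Cufflinks 2.2.1. The annotation is not given in the sources used here. The 27 rows with a date in place of a gene name were left out of 24346, leaving 24319 genes. Between 43.5% and 55.3% of low values lay near whole multiples (tolerance 0.15, 30.0% by chance), so reads were not recovered and depth is unknown.

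Values were analysed as log2(FPKM + 1), which understates the change of low genes. The 11481 genes averaging 1 FPKM or more were compared between the labels in R 4.3.3 by limma 3.58.1 (lmFit, then eBayes allowing a trend), two-sided, with Benjamini-Hochberg adjustment and a threshold of 0.05. On simulated libraries of this layout with 11481 genes, 100% of 200 genes changed by 2 (log2) were recovered at an SD of 0.2 and 87.5% at an SD of 0.5. In that simulation every gene had the same SD and varied independently, unlike the genes measured here. It checks the procedure and does not show what the measured libraries could detect. Near-identical copies were found with BLAST 2.17.0 on GENCODE M21.

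Genes were named by rule: the 6 highest, lowest, steadiest and most variable members, the 5 largest label differences each way, paralogs ending in l with partners, the P proteins, Rpsa, Rpl5, Rpl11 and Rps6, and from other lists the highest gene and both extreme differences. Some genes that the rule names are not reported here. Members and lists were chosen with earlier results of these data known. No set test was run. Alternatives were scaling, filter, pseudocount and leaving out each library.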

Additional observations from a re-analysis of the deposited data

Results flagged for a closer look

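In 5 libraries taken as 1 group, the difference between the large and the small subunit median was -0.27 in Lum3, set apart from the other libraries, where it was close to -0.14 or -0.17. The median of the genes named Eif or Eef was 5.40 in Lum3, below the 5.88 to 5.97 of the others. These are 2 of 42 values examined for a single library far from the rest (Dixon's ratio above 0.71), and chance alone marks about 5% of groups. Of the 78 members, 0 were marked on their own, against 12.99% of all genes tested. No explanation was tested.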

How the results depend on the processing

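No gene passed the test under any other filter, pseudocount, scaling or limma setting tried, and the count ran from 0 to 14 when each library was left out (2 without Lum1, 14 without Lum4, 4 without Lum5), with 0 members in every case. Without Lum4 or Lum5 the knockout label holds 1 library, which is assumed to vary like the wild type libraries, so these fits say little about members. The member median level was 9.48 as a mean over members, 11.36 without the 10 highest genes, 11.07 rescaled to equal totals and 11.27 so rescaled without small RNAs, the last pair chosen after seeing the data. The share of summed FPKM was 20.99% without the 10 highest genes and 19.7% without small RNAs. The large minus small subunit difference was -0.58 as a mean over members, which includes the 3 large subunit genes near 0. The median SD of members over libraries, with scalings added after seeing the data, was 0.22 under median-of-ratios, 0.16 under quantile scaling, 0.16 without the 10 highest genes and 0.14 rescaled to equal totals, and 0.25 to 0.32 when each library was left out.

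Fitted label differences of single members turned sign as follows. Under median-of-ratios scaling, which by its construction moved nearly all differences down by a like amount, Rpl15 was at -0.068, Rpl3 at -0.061, Rplp0 at -0.054 and Rpsa at -0.013. With each library left out in turn, for which the cause was not tested, Rpl15 ran from -0.16 to 0.28, Rpl3 from -0.14 to 0.29, Rplp0 from -0.059 to 0.22, Rpsa from -0.15 to 0.29, Rps27 from -3.40 to 1.44, Rpl38 from -0.53 to 0.11 and Rpl22 from -0.45 to 0.091. Without a change of sign, Rps4l ran from 0.32 to 0.94, Rpl34 from -0.46 to -0.085 and Rpl21 from -0.32 to -0.016. No paired analysis was possible because the titles number the libraries from 1 to 5 across both labels, so that no number in the labels is shared between them; the replicate numbers within a label only follow the order of the samples. With 3 libraries against 2 and no read totals, small differences were not detectable.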
